A study of Bos taurus with 11 samples.

Results

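Solute carriers are membrane proteins that move nutrients into and out of cells, and the 44 described here are the carriers of amino acids, sugars, lactate and related small molecules. They were chosen by symbol: every gene of the SLC1, SLC2, SLC3, SLC5, SLC6, SLC7, SLC16, SLC36, SLC38 and SLC43 families that was the only gene annotated to a probe set, 44 of 9155 genes on the array, with 65 probe sets between them. Where a gene had several probe sets, the one with the highest average signal across the 11 cows stands for it. No gene of the SLC36 family, the proton-coupled amino acid carriers, was among the genes annotated in this way, and that family was not analysed here. The choice by symbol used no measured difference.

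The RNA came from the uterine endometrium, the lining of the womb, of 11 multiparous Holstein-Friesian cows slaughtered 14 ± 0.4 days after calving (error as the labels give it). From day 2 after calving, 5 cows in mild negative energy balance had unlimited grass silage and 8 kg of concentrate (21% crude protein) a day. They were milked 1 time a day. The other 6, in severe negative energy balance, were given 25 kg of silage with 4 kg of the concentrate daily and milked 3 times a day, so diet and milking differed together. Parity averaged 4.7 over all cows, which had given 6477 ± 354 kg of milk in the lactation before, and cows were blocked on parity, body condition and yield before random allocation. Animals are named here by group and a number that only follows the order of the samples.

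Glucose and fructose enter cells by facilitative carriers of the SLC2 family or together with sodium by SLC5 carriers. Amino acids enter by sodium-driven carriers of SLC1, SLC6 and SLC38, by the SLC7 exchangers and uniporters, several of which need an SLC3 heavy chain to reach the membrane, and by the SLC43 uniporters. Lactate, pyruvate and ketone bodies cross with protons through the monocarboxylate carriers of SLC16. In the uterus these carriers feed the lining itself and help to set the sugars and amino acids of the fluid in its lumen, and in severe negative energy balance blood glucose is low while ketone bodies are high.

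Values are log2 signals, so that 1 unit is a 2-fold change in signal. Arrays correlated with each other at 0.948 to 0.991 and had the same median, 6.20. RNA quality, read from the 3' minus 5' signal of 6 control transcripts, gave 0.56 ± 0.07 (SD, n = 5) for mild cows against 0.59 ± 0.14 (SD, n = 6) for severe ones, with an exact two-sided permutation p of 0.643. Of 12 epithelial markers 11 gave a signal above the dim limit explained below, KRT8 being dim in all cows while KRT18, KRT19 and EPCAM were not, and all 11 measured stromal markers gave one, whereas 0 of 5 red blood cell genes and 0 of 6 trophoblast genes did. Markers of leukocytes had higher means in severe cows, though none passed an adjusted p of 0.05 (limma, lowest 0.215). At an unadjusted p under 0.05, reached by 15.9% of all genes, were 7 of 8 neutrophil, 4 of 8 macrophage, 9 of 12 T and NK cell and 5 of 6 B and plasma cell markers, each of them higher in severe cows. The mean signal of the neutrophil list ran from 5.05 to 6.41 in mild and from 6.71 to 9.19 in severe cows. In RNA of a whole tissue, a change in the number of cells of a type and a change in RNA per cell cannot be told apart.

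The lining gave a signal for members of every carrier family measured, but only for 22 of the 44 carriers. A carrier was called dim where its mean over the 11 cows did not exceed 5.52, a value that 40% of all probe sets on the array failed to pass. By that limit 22 carriers gave a signal, 19 of them in every cow, and 15 were under the limit in every cow. Of all 9155 genes 77.9% lay above it. A dim signal may come from a weak probe set as well as from little RNA, and probe sets bind with different strength, so signals of different genes are not ranked here. Among carriers near the limit, SLC5A10 (mean 5.52) and SLC38A5 (5.56) lay just above it and SLC6A17 (5.48) and SLC2A4 (5.46) just under it.

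**Figure D1:**
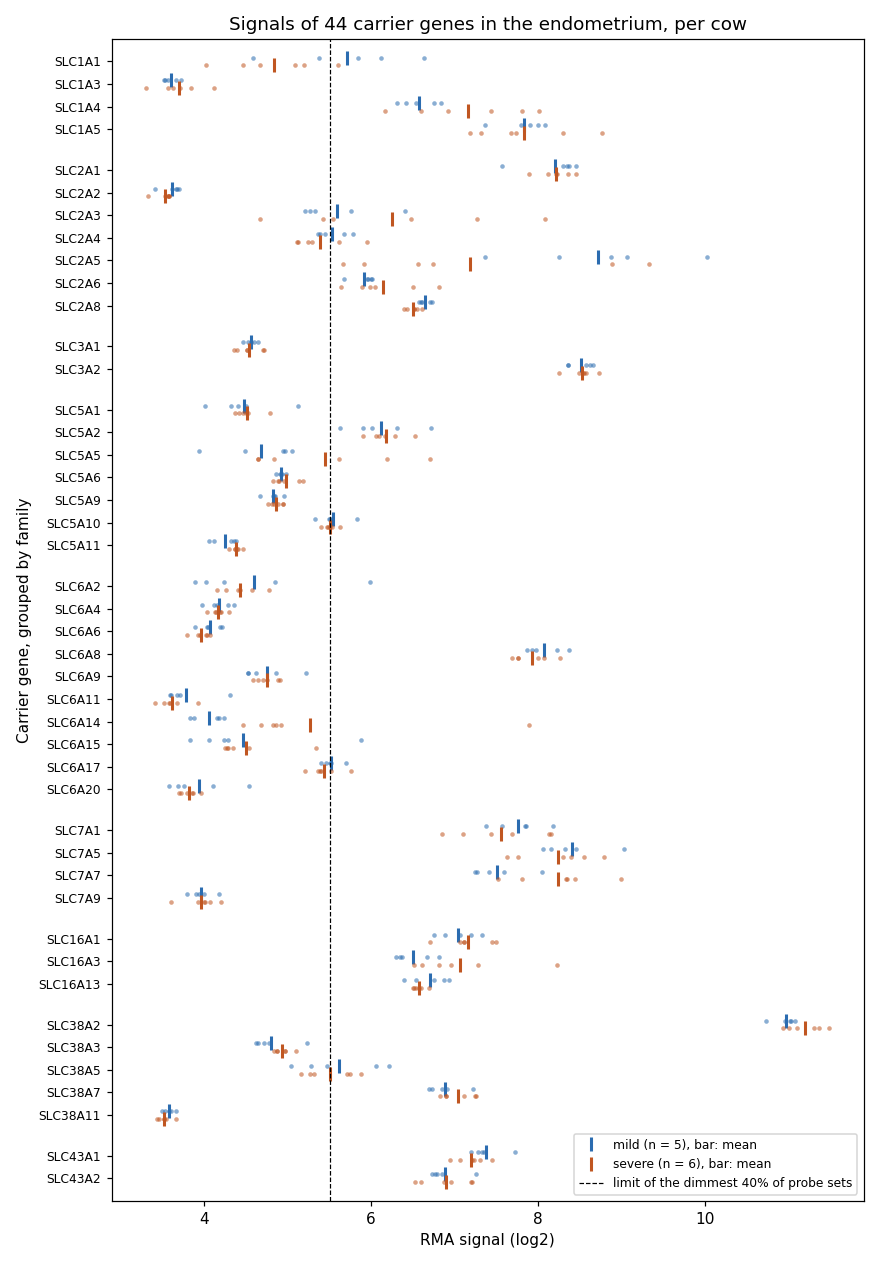
Signals of the 44 carriers (horizontal axis, RMA signal in log2 units) by gene and family (vertical axis), 1 point per cow, mild in blue above severe in orange, with bars at the group means and a dashed line at the dim limit of 5.52. Of the SLC6 carriers SLC6A8 has all its points right of the line, and all points of the SLC16 and SLC43 carriers lie right of it.

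By family, signals above the limit came from 3 of 3 SLC16, 2 of 2 SLC43, 3 of 4 SLC7, 5 of 7 SLC2, 3 of 5 SLC38, 2 of 4 SLC1, 1 of 2 SLC3, 2 of 7 SLC5 and 1 of 10 SLC6 carriers. The sugar carriers with signal were SLC2A1, the widespread glucose carrier, SLC2A3, a high-affinity glucose carrier, SLC2A5, the fructose carrier, SLC2A6 and SLC2A8, which sit largely on membranes inside the cell, and SLC5A2 and SLC5A10. SLC2A2, the glucose carrier of liver and pancreatic beta cells, averaged 3.57 and was dim in every cow. The probe set that stands for SLC5A1, the sodium-glucose carrier of the gut, averaged 4.50 and was dim in every cow too, while its other probe set passed the limit in 1 cow. The insulin-responsive carrier SLC2A4 was above the limit in 2 of 5 mild and 2 of 6 severe cows. Of the carriers counted as having signal, SLC2A3 was above the limit in 6 of 11 cows and SLC5A10 in 4 of 11. The other probe sets of SLC5A10 were dim at 4.82 and 5.16.

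Beside SLC6A8, amino acid carriers with signal included SLC38A2 (SNAT2), the sodium-driven carrier of small neutral amino acids that cells raise when these are scarce. SLC1A5 (ASCT2, an exchanger of glutamine, serine and alanine) and SLC1A4 (ASCT1, an exchanger of serine and alanine) gave one too. So did SLC7A5 (LAT1, which exchanges large neutral amino acids), its heavy chain SLC3A2 and SLC7A1 (CAT1, for arginine and lysine). The rest were SLC7A7 (which exports cationic amino acids with SLC3A2), the leucine uniporters SLC43A1 and SLC43A2, SLC38A7 and SLC38A5. Of these SLC38A5 was above the limit in 5 of 11 cows. Several carriers known from kidney, gut or nerve cells were dim on average. SLC3A1 and SLC7A9, whose proteins pair to take up cystine in the kidney, averaged 4.55 and 3.97. The noradrenaline, serotonin, glycine and GABA carriers SLC6A2, SLC6A4, SLC6A9 and SLC6A11 averaged between 3.69 and 4.75. The creatine carrier SLC6A8 was the SLC6 member with signal, at 7.99, and the probe set of the taurine carrier SLC6A6 averaged 4.02.

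The comparison of severe with mild cows asks whether the expression of these carriers differs with the depth of the energy deficit. None of the 44 carriers passed limma's test at an adjusted p under 0.05, and no probe set of the array did (0 of 24016, 0%). The smallest adjusted p among the carriers was 0.308, for SLC7A7. At an unadjusted p under 0.05 there were 4 carriers, 2 higher in severe cows (SLC7A7 and SLC6A14) and 2 lower (SLC1A1 and SLC2A8). That is 9.09% of the carriers, where 15.9% of all genes, 8.45% higher and 7.46% lower, had such a p. The count of 4 became 2 without mild 2, mild 3, mild 4 or severe 5, each left out in turn. Shares of all probe sets for those settings are not given here, so the drop is not a result about the carriers. The count became 7 without severe 1, where 15.3% of all probe sets had such a p, and 8 without severe 3, where 15.2% did. Whether the carriers' share differs from that of the array was not tested. At an unadjusted p under 0.01 there were 0 carriers, where 4.06% of all genes had such a p.

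In 36 of the 44 carriers the group means differed by less than 0.25, as they did in 76.5% of all genes. The other 8 differed by more than 0.5, against 8.39% of all genes (5.42% higher and 2.97% lower): SLC7A7, SLC6A14, SLC5A5, SLC2A3, SLC1A4 and SLC16A3 higher in severe cows and SLC1A1 and SLC2A5 lower. The carriers also varied more between cows of a group, with a median within-group SD of 0.25 against 0.19 over all genes. Differences split evenly, 22 higher and 22 lower (48.9% of all genes were higher), with a median of 0.0015 against -0.0038 over all genes. Family medians lay between -0.09 (SLC6) and 0.14 (SLC38).

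**Figure D2:**
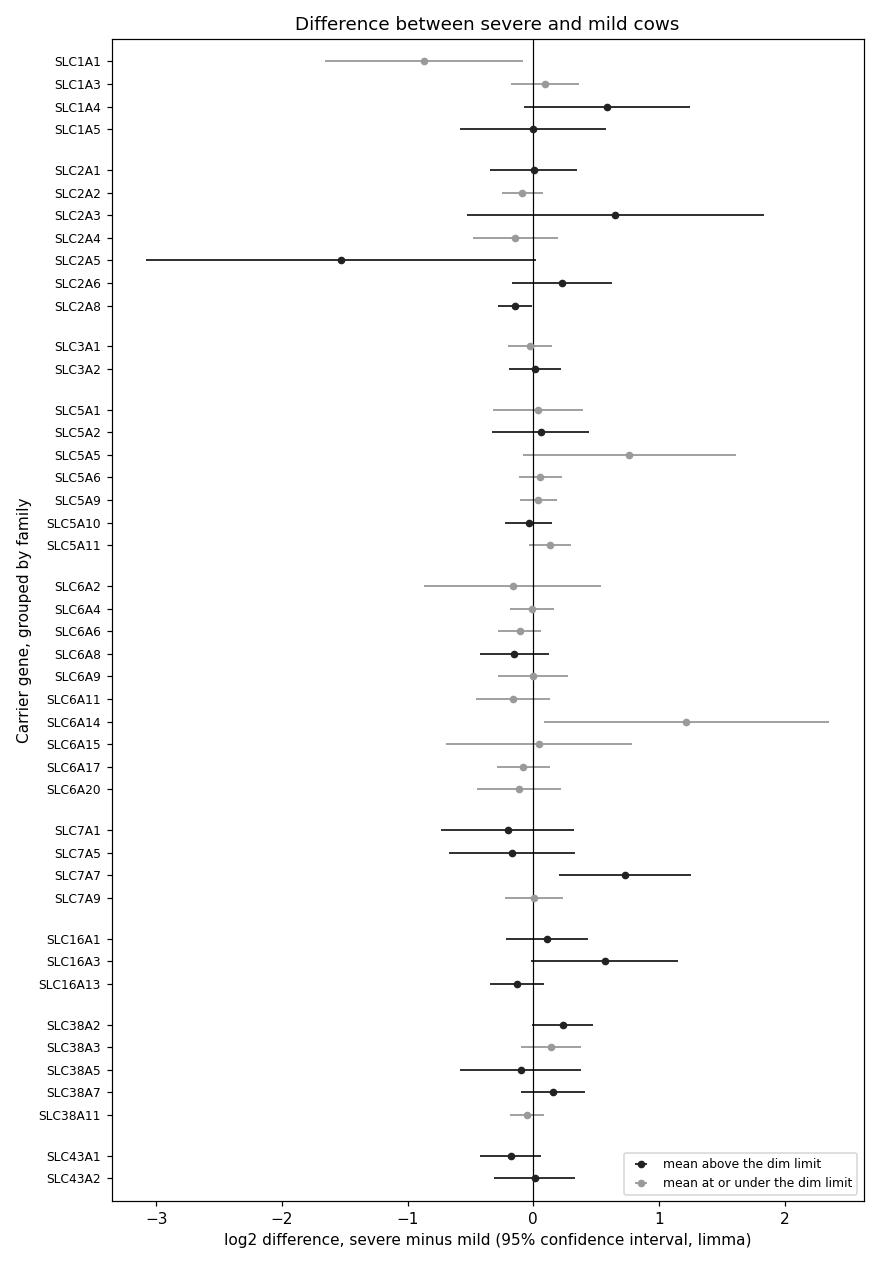
Log2 difference of severe minus mild cows (horizontal axis) with limma's 95% confidence interval for each of the 44 carriers, grouped by family (vertical axis), in black where the mean lay above the dim limit and in grey where it did not. Intervals of SLC7A7 and SLC6A14 lie right of 0 and those of SLC1A1 and SLC2A8 left of it, and SLC2A5 has the widest interval.

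The glucose carrier SLC2A1 had nearly the same mean in both groups. Its signals in mild cows 1 to 5 were 8.30, 8.37, 8.45, 7.57 and 8.35, and in severe cows they ran from 7.89 over a median of 8.22 to 8.46. Mild 4 stood below all other cows, and the rest overlapped. The difference was 0.0036 with a 95% interval from -0.34 to 0.35 (limma adjusted p = 0.995), or -0.16 without mild 4.

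SLC2A5, which carries fructose, had the largest difference of all carriers in absolute size and the largest spread. Mild cows 1 to 5 had signals of 9.07, 10.02, 8.87, 8.25 and 7.36, and severe cows ran from 5.66 over a median of 6.66 to 9.33. In severe 1 (8.89) and severe 3 (9.33) the signal was as high as in mild cows, and in the other 4 severe cows it was lower than in any mild cow. Means were 8.72 ± 0.99 (SD, n = 5) and 7.18 ± 1.55 (SD, n = 6), and the difference of -1.53 ± 0.71 (SE) had a limma unadjusted p of 0.0524 and an adjusted p of 0.394. In a second probe set severe 1 (8.22) and severe 3 (8.41) were again the highest severe cows and the difference was -0.99 ± 0.53 (SE), while another was dim at 3.75. The mean over the 3 probe sets differed by -0.88. Epithelial markers, given beside it because sugar carriers are found in epithelia, ranged from 7.67 to 8.46 in mild and 7.06 to 8.39 in severe cows in the mean signal of the list, with severe 5 lowest in that list and in SLC2A5. Severe 4 was high in the list (8.38) and low in SLC2A5 (6.74). The list mean joins markers that went opposite ways, 5 higher and 7 lower in severe cows. Only CLDN10, lower in severe cows, had a limma unadjusted p under 0.05 (0.0343, adjusted p = 0.359). Its signals ran from 9.84 to 11.71 in mild cows. Severe 1 (10.98) and severe 3 (10.75) were its highest severe cows, as in SLC2A5, and the other 4 ran from 8.67 in severe 5 to 10.06. CLDN4 had a higher mean in severe cows, by 0.64 (limma adjusted p = 0.465). The part of epithelial cells in the SLC2A5 difference was not tested.

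SLC2A8, a carrier of glucose inside cells, had the smallest spread of all 44 carriers, with a within-group SD of 0.07. Its signals in mild cows were 6.70, 6.62, 6.58, 6.60 and 6.73, and in severe cows they ran from 6.40 over a median of 6.51 to 6.61. Severe 4, at 6.61, lay among the mild cows, and the other 5 severe cows lay below all of them. The difference of -0.14 ± 0.06 (SE), a 1.10-fold lower signal, had a limma unadjusted p of 0.0404, an adjusted p of 0.370 and an exact two-sided permutation p of 0.0108. SLC2A3, a high-affinity glucose carrier of nerve cells and leukocytes, ranged from 4.67 in severe 3 to 8.09 in severe 5. Its difference of 0.65 ± 0.54 (SE) was smaller than the within-group SD of 1.01 (limma adjusted p = 0.635). SLC2A6, another carrier of inner membranes, differed by 0.23 ± 0.18 (SE).

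The sodium-coupled SLC5 carriers were mostly dim. SLC5A5, the iodide carrier of thyroid and mammary gland, was under the limit in all 5 mild cows (3.94 to 5.06) and above it in severe 1, 4 and 6 at 6.71, 6.19 and 5.62. The groups overlapped, and the difference of 0.76 ± 0.39 (SE) had a limma adjusted p of 0.439. SLC5A11, an inositol carrier, differed by 0.13 near the floor of the array, and SLC5A2, the renal glucose carrier, had a difference of 0.06 with an interval from -0.33 to 0.45. For SLC5A1 the probe sets disagreed. The one chosen by the rule differed by 0.04, and the other, mean 4.19 and singled out after its values were seen, was at 3.60 to 3.83 in mild and 3.88 to 5.81 in severe cows, without overlap. That probe set differed by 0.85 ± 0.31 (SE, limma unadjusted p = 0.0200, adjusted p = 0.332) and only severe 4 lay above the dim limit, so the size is not exact.

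SLC7A7 had the smallest p of the carriers and was higher in severe cows. Its protein, y+LAT1, exports arginine and lysine in exchange for neutral amino acids and is known from gut, kidney and macrophages. Mild cows 1 to 5 had signals of 7.59, 7.26, 7.42, 7.25 and 8.04, and severe cows ran from 7.52 over a median of 8.34 to 8.99. Severe 2, 4, 5 and 6 lay above all mild cows, and severe 1 and 3 among them. Means were 7.51 ± 0.33 (SD, n = 5) and 8.24 ± 0.52 (SD, n = 6), a 1.65-fold difference of 0.73 ± 0.24 (SE) in log2 with a 95% interval from 0.20 to 1.25. The limma unadjusted p was 0.0110, the adjusted p 0.308 and the exact two-sided permutation p 0.0281. The difference lay between 0.58 and 0.87 when cows were left out in turn.

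Several leukocyte lists had higher signals in severe cows beside SLC7A7. All 8 measured macrophage markers had higher means in severe cows, 4 of them at an unadjusted p under 0.05 (15.9% of all genes) and 0 after adjustment, and the mean signal of the list ran from 7.87 to 9.29 in mild and from 8.26 to 10.41 in severe cows. Severe 4 was highest in both SLC7A7 and the list (8.99 and 10.41), mild 5 was highest among mild cows in both (8.04 and 9.29), and severe 3 lowest among severe cows in both (7.52 and 8.26). The T and NK cell list ran from 5.51 to 6.33 in mild and from 6.07 to 7.19 in severe cows, and the B and plasma cell list from 6.16 to 8.41 and from 6.69 to 9.62. In both of these lists severe 1 was the lowest severe cow, and severe 2, 5 and 6 were the 3 highest of all cows. The pairing of carrier and list was chosen after the values were seen, and the part of any of these cells in the difference was not tested.

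**Figure D3:**
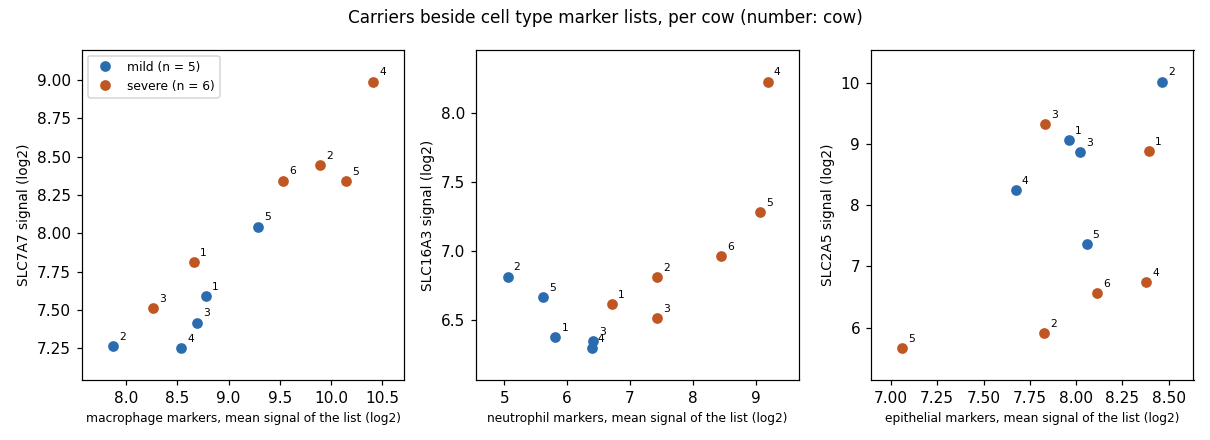
Signals of 3 carriers (vertical axes, log2) against the mean signal of a marker list (horizontal axes, log2), 1 numbered point per cow, mild in blue and severe in orange: SLC7A7 with macrophage markers, SLC16A3 with neutrophil markers and SLC2A5 with epithelial markers. Severe 4 is highest on both axes of the first 2 panels, and severe 5 is lowest on both axes of the third.

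The SLC3 heavy chains and the other SLC7 carriers had smaller differences, none at an unadjusted p under 0.05. SLC3A2 (CD98 heavy chain), which SLC7A5 and SLC7A7 need to reach the membrane, averaged 8.51 ± 0.14 (SD, n = 5) in mild and 8.52 ± 0.16 (SD, n = 6) in severe cows. Its difference of 0.01 had a 95% interval from -0.20 to 0.22 (limma adjusted p = 0.973). SLC7A5 averaged 8.40 ± 0.38 and 8.24 ± 0.45, a difference of -0.17 with an interval from -0.67 to 0.34. SLC7A1, the main arginine importer, differed by -0.20 with an interval from -0.74 to 0.33. In SLC3A1 the difference was -0.03 and in SLC7A9 0.0050, both dim. Whether SLC7A7 differed from its partners in its response was not tested.

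Neither leucine uniporter had an unadjusted p under 0.05. SLC43A1 averaged 7.38 ± 0.20 (SD, n = 5) in mild and 7.20 ± 0.18 (SD, n = 6) in severe cows, a difference of -0.18 with an interval from -0.43 to 0.06 (limma adjusted p = 0.521). SLC43A2 differed by 0.01 with an interval from -0.31 to 0.33.

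In the SLC1 family, the glutamate carrier and the neutral exchangers gave different values. SLC1A1 (EAAT3), which takes up glutamate, aspartate and cysteine in epithelia and nerve cells, had signals of 5.38, 6.64, 5.85, 6.12 and 4.58 in mild cows, and severe cows ran from 4.02 over a median of 4.88 to 5.60. Above the dim limit lay 3 of 5 mild cows and 1 of 6 severe cows, so its size is not exact. The difference of -0.87 ± 0.36 (SE) had a limma unadjusted p of 0.0327, an adjusted p of 0.356 and an exact two-sided permutation p of 0.0628. All 6 severe cows were under the mean of the mild cows. SLC1A4 (ASCT1) had signals between 6.31 and 6.84 in mild cows and from 6.16 over a median of 7.18 to 8.02 in severe cows, with severe 2, 4, 5 and 6 above all mild cows. Its difference of 0.59 ± 0.30 (SE, limma adjusted p = 0.443) compares with 0.16 ± 0.19 (SE) in a second probe set. SLC1A5 (ASCT2) differed by -0.00058, with an interval from -0.58 to 0.58, and severe cows held both its highest signal (severe 5, 8.77) and its lowest (severe 2, 7.18).

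SLC6A14 was the only carrier whose groups did not overlap, 1 of 44 against 1.19% of all genes (0.754% with severe cows above). It is a concentrative carrier of neutral and basic amino acids found in mucosal epithelia. Mild cows had signals of 3.88, 4.24, 4.15, 4.18 and 3.83, and severe cows ran from 4.46 over a median of 4.85 to 7.89. All severe cows lay above all mild cows, but only severe 4, at 7.89, lay above the dim limit, and the others reached at most 4.92. The difference of 1.22 ± 0.52 (SE) had a limma unadjusted p of 0.0378, an adjusted p of 0.367 and an exact two-sided permutation p of 0.00649. Without severe 4, singled out after its value was seen, the difference was 0.69 (limma unadjusted p = 9.8e-05, adjusted p = 0.464). Leaving out the most distant cow shrinks the spread that enters this p, and sizes so near the floor are not exact. Severe 4 also had the highest means of the neutrophil (9.19) and macrophage (10.41) lists. In the epithelial list severe 4 had a mean of 8.38, under mild 2 (8.46) and severe 1 (8.39). Of the epithelial markers, KRT7, KRT18, KRT19, CDH1, CLDN4 and ELF3 were highest of all cows in severe 4. EPCAM, KRT8, CLDN3, CLDN7, CLDN10 and ESRP1 were not. The part of any of these cells in this value was not tested. The count of carriers without overlap was 3 without mild 1 and 2 without severe 4. Leaving out a cow can only keep or raise this count, and shares of all genes for these settings are not given here. The rise is therefore not a result about the carriers. Of the other SLC6 carriers, SLC6A8 differed by -0.15 ± 0.13 (SE) and SLC6A6 by -0.11, and of the 10 members 8 were lower in severe cows, all 8 by at most 0.16.

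**Figure D4:**
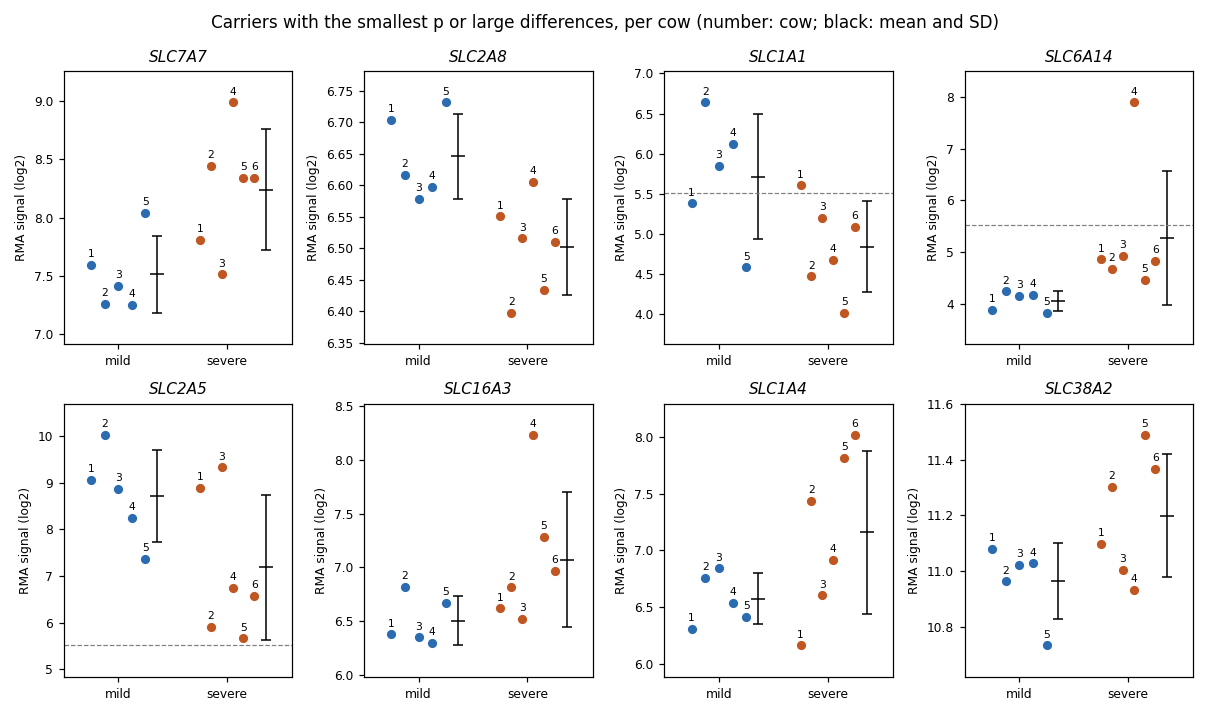
Signals (vertical axes, log2, a separate scale in each panel) of 8 carriers in mild (blue) and severe (orange) cows, 1 point per cow with its number, the mean and SD of each group in black, and a dashed line at the dim limit where it falls in the panel. Severe 1 and 3 lie among the mild cows for SLC7A7 and SLC2A5, and severe 4 stands far above the rest for SLC6A14 and SLC16A3.

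Of the SLC38 carriers SLC38A2 had the smallest p. Its signals in mild cows were 11.08, 10.96, 11.02, 11.03 and 10.73, and in severe cows they ran from 10.93 over a median of 11.20 to 11.49. Severe 1, 2, 5 and 6 lay above all mild cows. The difference of 0.23 ± 0.11 (SE), or 1.18-fold, had a limma unadjusted p of 0.0577 and an adjusted p of 0.406, and a second probe set, mean 7.88, had the opposite sign at -0.09 ± 0.23 (SE). SLC38A7, a glutamine carrier of the lysosome, differed by 0.16 with an interval from -0.10 to 0.41.

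The monocarboxylate carriers SLC16A1, SLC16A3 and SLC16A13 gave signal in every cow. SLC16A3 (MCT4), the lactate exporter of glycolytic cells, had signals of 6.38, 6.82, 6.35, 6.30 and 6.67 in mild cows and from 6.52 over a median of 6.89 to 8.23 in severe cows. Severe 4, 5 and 6 lay above all mild cows. The difference of 0.57 ± 0.27 (SE) had a limma unadjusted p of 0.0550 and an adjusted p of 0.400, and it was 0.34 without severe 4. The other 2 probe sets of the gene were dim and differed by 0.03 and -0.02. Leukocytes are glycolytic cells, and severe 4 was highest in the neutrophil list (9.19) and in SLC16A3 (8.23), while mild 2 had the lowest value in that list (5.05) and the highest SLC16A3 of the mild cows (6.82). The part of neutrophils in the difference was not tested. SLC16A1 (MCT1), which carries lactate and ketone bodies, differed by 0.11 with an interval from -0.22 to 0.44, and SLC16A13 by -0.13 ± 0.10 (SE). BSG (basigin), the partner that brings MCT1 and MCT4 to the membrane, averaged 11.14 ± 0.10 (SD, n = 5) and 11.07 ± 0.15 (SD, n = 6), a difference of -0.08 (limma adjusted p = 0.736).

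Lists of genes that sense or use these nutrients had no member at an adjusted p under 0.05 either. The 15.9% of all genes at an unadjusted p under 0.05 is the measure for their counts. These lists were chosen with earlier results of these data known, so a count above that share is description only. Of 10 genes of the amino acid response, the program that the factor ATF4 switches on when amino acids run short, 5 had an unadjusted p under 0.05, all higher in severe cows, and the median difference of the list was 0.34. ATF4 itself differed by 0.32 ± 0.11 (SE, limma adjusted p = 0.310) and TRIB3, a kinase-like inhibitor that is dim here, by 0.35 ± 0.12. Of 11 genes of hypoxia and insulin signalling, 4 were higher and 1 lower at that threshold. At any size 9 were higher and 2 lower. The 2 lower genes were PIK3R1, at -0.97 ± 0.41 (SE, limma adjusted p = 0.368), and ADM, at -0.06. HIF1A, the oxygen-regulated factor that drives SLC2A1 and SLC16A3 in other tissues, differed by 0.50 ± 0.16 (SE, limma adjusted p = 0.308), and BNIP3, one of its targets, by 0.67 ± 0.17.

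The other lists lay closer to the background. Of 20 genes of amino acid sensing and mTORC1, 2 were higher and 1 lower at an unadjusted p under 0.05, with NPRL2, a subunit of the GATOR1 complex, at 0.21 ± 0.07 (SE, limma adjusted p = 0.306) and RHEB at 0.15. Of 15 enzymes that trap hexoses or turn over lactate and pyruvate, 1 was higher and 3 lower. PDK4, which shuts off pyruvate dehydrogenase in fasting, differed by 1.30 ± 0.49 (SE, limma adjusted p = 0.335), or 0.80 without mild 2, and LDHB, a lactate dehydrogenase subunit, by -0.25. Of 16 enzymes of glutamine, arginine and branched-chain amino acids, 2 were lower, BCAT2, the mitochondrial branched-chain aminotransferase, at -0.38 ± 0.09 (SE, limma adjusted p = 0.282) and BCKDHB, a subunit of the next enzyme, at -0.36. Of 6 partner and trafficking proteins 1 was lower, TBC1D1, which restrains movement of glucose carriers to the membrane, at -0.44 ± 0.12 (SE, limma adjusted p = 0.288).

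Where a cow stood high or low depended on the carrier. Among the 22 carriers with signal, severe 5 had the highest signal of all cows in 5 and the lowest in 2, mild 1 the highest in 4 and severe 1 the lowest in 5, and mild 5 the highest in 3 and the lowest in 5. Of the 15 carriers with more than 1 probe set, 5 had another probe set of the opposite sign, and 1 of the other probe sets, that of SLC5A1, had an unadjusted p under 0.05.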

How the data were processed

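Total RNA of each cow, extracted with Trizol and labelled with biotin, was measured on 1 array per the labels' protocols. The deposited values are log2 signals to which the authors applied RMA, per the submitters' processing notes. Values run from 2.65 to 14.6, a log2 range. Its version and any filter: not given in the sources used here. All columns share 1 median, which hides any shift that touches every transcript alike. An array has no read depth, and the number of arrays limits the precision. From 24128 probe sets 112 controls were left out. Of the 24016 tested, 13292 had 1 gene symbol in the platform annotation of 2016, 86 had several, and 10638 were not listed. Entrez numbers matched 13263 to RefSeq names (ARS-UCD2.0), including all 44 carriers, with 0 symbols changed. No sequences were used here.

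The fit of severe minus mild used limma 3.58.1 under R 4.3.3 (lmFit and eBayes, two-sided, Benjamini-Hochberg over all probe sets, threshold 0.05), and every adjusted p is from it. The exact permutation tests run over all 462 splits of the cows, with 0.00216 the smallest p they can give. Each cow is 1 sample, and no block, batch or scan date of a cow was used here. Members and lists were chosen with earlier results of these data known. Named carriers are those at an unadjusted p under 0.05 and, in each family, the 2 with the smallest p and the one with the highest mean, and in each pathway list the 2 with the smallest p. Other carriers are named for their level or where probe sets or large differences stood out, after their values were seen. PIK3R1, ADM and single epithelial markers were also named after their values were seen. The fit was tested on simulated data with known changes. Alternatives were a filter on the dimmest 40%, a second quantile normalization, array weights, a common median, a trended and robust eBayes, the mean over a gene's probe sets, other thresholds and dim limits, and each cow left out. Figures were drawn in Python 3.11.15 (matplotlib 3.10.9).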

Additional observations from a re-analysis of the deposited data

Results flagged for a closer look

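Of 48 groups of named carriers examined, 3 held a cow far from the rest of its group by Dixon's criterion, where chance gives about 1 in 20. SLC6A14 was 7.89 in severe 4, and the next severe cow had 4.92. SLC2A1 was 7.57 in mild 4, and the next mild cow had 8.30. SLC43A2 was 7.26 in mild 5, and the next mild cow had 6.85.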

How the results depend on the processing

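No carrier passed an adjusted p of 0.05 under any alternative run, nor at 0.10 or with adjustment over 1 probe set per gene. The 4 carriers at an unadjusted p under 0.05 became 1, SLC7A7, without the dimmest 40% of probe sets. That filter removes SLC1A1 and SLC6A14 by definition, because their means are dim, and SLC2A8 was lost in the refit. The count was 0 at a threshold of 0.01 and between 2 and 8 with 1 cow left out. For the filter and for the settings with 2 carriers, the share of all probe sets is not given here. Carriers without overlap numbered between 1 and 3 with 1 cow left out, a count that leaving out a cow can only keep or raise. Differences near 0 changed sign. After a second quantile normalization SLC2A1 was at -0.015 and SLC3A2 at -0.0098, and with array weights SLC3A2 was at -0.0050. With 1 cow left out SLC1A5 ranged from -0.19 to 0.13, SLC2A1 from -0.16 to 0.067, SLC3A1 from -0.063 to 0.0092, SLC3A2 from -0.031 to 0.066, SLC43A2 from -0.050 to 0.11 and SLC5A2 from -0.061 to 0.21. The cause of these moves was not tested beyond the smaller set of cows or probe sets that each alternative holds. Signals under 5.52 are called dim here, and differences between low signals may be compressed, which was not tested. No paired analysis was possible because the labels give no replicate numbers.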
